A study of Rattus norvegicus with 16 samples.

Results

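The neurotrophins and their receptors were followed through 7 of the 35250 gene names on the array: Bdnf, Ntf3 and Ntf4, the ligands, and Ntrk2, Ntrk3, Ngfr and Sort1, the receptors. Every array probe that carried one of these gene names was taken, which gave 12 probes of the 41012 for transcripts. Of these 12 probes 11 passed the filter on dim probes, as did 27294 probes in all, and the probe of Ntf4 did not. The samples were 16 primary cultures of rat hippocampal neurons in a study of PRR7, a transmembrane adaptor protein found at synapses. All cultures came from Sprague-Dawley embryos of either sex, taken at embryonic day 18 to 19. One group received no virus. A second group received a lentivirus with a nontargeting shRNA, a short hairpin RNA without a target. The third group received a lentivirus built in the pTRIP vector, whose shRNA, given as 1 sequence, was directed at the coding region of Prr7. The fourth received a lentivirus built in the FUGW vector that carried full-length Prr7, and no cultures with an empty overexpression virus were among the samples. Each group held 4 samples, named biological replicates in the study design. No probe was named Prr7 (0 probes), so the knockdown and the overexpression could not be checked on the transcript itself.

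Neurotrophins are secreted growth factors that support the survival of neurons, the growth of their processes and the strength of their synapses. Each is made as a longer precursor that is cut to the mature factor. The mature factors bind Trk receptor tyrosine kinases, TrkB (Ntrk2) for the products of Bdnf and Ntf4 and TrkC (Ntrk3) for that of Ntf3, while p75 (Ngfr) binds all of them. Uncut precursors bind p75 together with sortilin (Sort1), which also sorts the Bdnf precursor inside the cell. In hippocampal neurons transcription of Bdnf is known to follow synaptic activity and calcium entry.

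Each probe is 60 bases long, and the 5 probes on which the results turn are shown because they read different stretches of the transcripts of the same gene. The first Bdnf probe spans the start of the coding region, which all Bdnf transcripts share, and its capitals mark the start codon. The second Bdnf probe lies 3036 bases further along the transcript, near the end of the long 3′ untranslated region. Its last 30 bases are shown, with capitals for the hexamer AATAAA, the polyadenylation signal motif. That hexamer, searched on the strand of the probe, stood in 4.26% of all transcript probes and in 1 of the 12 member probes. The first Ntrk2 probe reads the extracellular part of TrkB, present in both main receptor forms. The second reads transcript variant 2, which encodes the truncated receptor without a kinase, and the third reads transcript variant 1, which encodes the full-length receptor. The last 30 bases of the latter pair are shown, as both lie far downstream in their transcripts.
Bdnf A_44_P219026: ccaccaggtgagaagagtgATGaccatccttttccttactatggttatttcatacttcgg
Bdnf A_44_P437896: tctgagagacgttagtcaaacaAATAAAag
Ntrk2 A_44_P161121: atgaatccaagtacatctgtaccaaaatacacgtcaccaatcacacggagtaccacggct
Ntrk2 A_42_P631184: atttataggtttttctcttaacagtcccag
Ntrk2 A_42_P538400: aaactctgcatcatggacacagtttccgat

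On the rn4 build the array annotation places the Bdnf probes at chr3_random:976345-976404 and chr3_random:979381-979440. They are 3036 bases apart in the genome and in the transcript alike, so no intron separates them. The Ntrk2 probes lie on the minus strand of chromosome 17, at chr17:11754284-11754343 for the extracellular part, chr17:11680049-11680108 for variant 2 and chr17:11495183-11495242 for variant 1. The probe of Ntf3 is at chr4:162436573-162436632, that of Ntf4 at chr1:95887789-95887848, that of Ntrk3 at chr1:133925545-133925604 and that of Ngfr at chr10:84263082-84263141. The 3 Sort1 probes start at positions 1899, 2757 and 5929 of one transcript, at chr2:203918361-203918420, chr2:203927627-203927686 and chr2:203930799-203930858. Probes of Bdnf (A_44_P437896), Ntrk2 (A_42_P538400) and Ngfr were each printed as 10 spots per array, and the others as 1 spot.

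Of all transcript probes, 49.2% to 69.6% were well above background per sample, and no spot of a member probe was saturated. Each array held 2 samples of the same group in different dyes. One slide carried the knockdown and nontargeting arrays, and the other carried those of overexpression and not transduced. A difference between groups on different slides cannot be told apart from one between the slides. All 7 neuronal markers with a probe were well above background in all 16 samples, as were 6 of 8 markers of excitatory hippocampal neurons. Astrocyte and interneuron markers were also well above background in all samples (8 of 8 each). Of 8 microglial markers, Csf1r, C1qb and Cd68 were well above background in 16 samples, C1qa in 9 and P2ry12 in 6, while Aif1, Cx3cr1 and Itgam were in 0. In such bulk samples, fewer cells of a type and less RNA per cell cannot be told apart.

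Values below are log2 intensities after normalization, and each difference comes from 1 limma fit over all 16 samples. P values carry a Benjamini-Hochberg adjustment across 27294 probes, with a threshold of 0.05. In knockdown against nontargeting, Bdnf was lower and the Trk receptors, Ntf3 and a sortilin probe were higher. There 7 of the 11 tested member probes passed, 5 higher and 2 lower, where 21.0% of all probes passed (10.3% higher and 10.8% lower). In 10 of the 11 the values of the groups did not overlap, against 37.7% of all probes. The median log2 difference was 0.51 over the member probes and -0.02 over all probes.

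In overexpression against not transduced, 0 of the 11 passed in limma, and 2 had an unadjusted p under 0.05. Of all probes 0.00366% passed, which was 1 probe, and 1036 had an unadjusted p under 0.05. Both member probes with an unadjusted p under 0.05 were those of Bdnf, for which the groups did not overlap, as was so for 6.45% of all probes. In nontargeting against not transduced 6 of the 11 passed, 3 higher and 3 lower, where 22.2% of all probes did (11.2% higher and 11.1% lower) and the groups did not overlap at 32.2%. In overexpression against nontargeting 7 of the 11 passed, 4 higher and 3 lower, against 22.5% of all probes (10.6% higher and 11.9% lower), with no overlap of the groups at 36.6%. These comparisons share the nontargeting samples with knockdown against nontargeting. The direction of calls over all probes turned on the scaling. The higher share of calls in knockdown against nontargeting was 48.8%, but 97.2% without normalization between arrays, where the median of all probes was 0.64, and 78.8% with the deposited series matrix. It was 50.3% in nontargeting against not transduced, and 4.42% without normalization between arrays. In overexpression against nontargeting it was 47.2%, and 94.7% and 32.6% in those same settings. No member probe that passed changed direction in any setting run.

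In knockdown against not transduced 0 of the 11 passed, where 10.1% of all probes passed. An unadjusted p under 0.05 was found for 1 of the 11 and for 6843 of all 27294 probes. In knockdown against overexpression 0 of the 11 passed, where 10.3% of all probes passed. There 2 of the 11 and 7074 of all 27294 probes had an unadjusted p under 0.05.

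**Figure D1:**
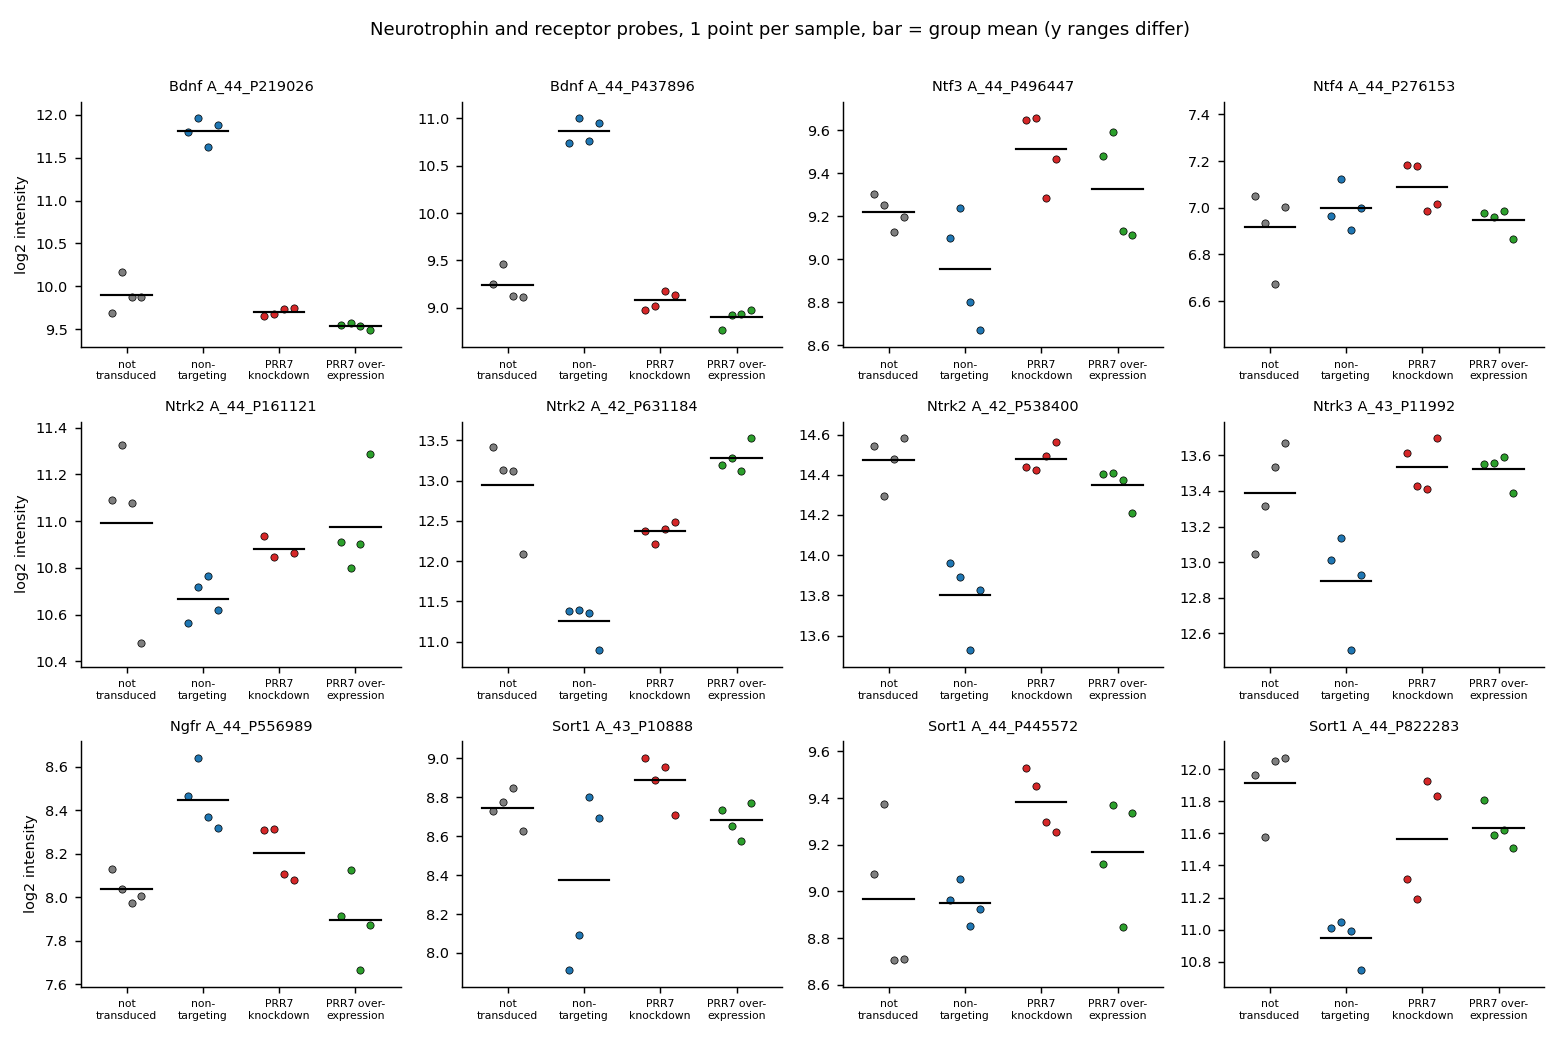
Log2 intensity (vertical axis, ranges differ between panels) of the 12 member probes in the 4 groups; each point is a sample and each bar a group mean. Both Bdnf probes are highest in all 4 nontargeting samples (11.62 to 11.96 and 10.75 to 11.00), while the Ntrk2 probes for variants 1 and 2 are lowest there.

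Bdnf transcripts were 4.31-fold lower in knockdown than in nontargeting cultures at the coding probe and 3.46-fold lower at the distal probe. They were 3.76-fold and 3.1-fold higher in nontargeting than in not transduced cultures. At the coding probe the 4 nontargeting samples read 11.80, 11.96, 11.62 and 11.88. The knockdown samples read 9.66, 9.68, 9.74 and 9.75, the overexpression samples 9.55, 9.57, 9.53 and 9.49, and the not transduced samples 9.70, 10.17, 9.87 and 9.87. The nontargeting samples thus stood more than 1 log2 unit above every other sample, and the other 3 groups lay close together. The log2 difference of knockdown from nontargeting was -2.11 (SE 0.14, n = 4 and 4, limma adjusted p = 1.52e-07), and that of nontargeting from not transduced was 1.91 (SE 0.14, limma adjusted p = 4.8e-07).

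At the distal probe the nontargeting samples read 10.75, 11.00, 10.76 and 10.96, and the knockdown samples 8.98, 9.02, 9.18 and 9.13. The not transduced samples read 9.25, 9.46, 9.13 and 9.11, and the overexpression samples 8.76, 8.92, 8.93 and 8.98. The order of the groups was that of the coding probe. The log2 difference of knockdown from nontargeting was -1.79 (SE 0.12, limma adjusted p = 1.52e-07), and that of nontargeting from not transduced was 1.63 (SE 0.12, limma adjusted p = 4.8e-07). Over its 10 spots per array, the SD of the log2 values within a sample ranged from 0.23 to 0.68 with a median of 0.28.

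Below the nontargeting group, the means of the other groups ran from overexpression through knockdown to not transduced at both Bdnf probes, and no neighbouring pair among them passed (limma adjusted p of 0.38 to 0.49). On the shared slide the log2 difference of overexpression from not transduced was -0.37 (95% interval -0.66 to -0.07) at the coding probe and -0.34 (95% interval -0.59 to -0.09) at the distal probe, each with a limma adjusted p of 1.00. Every overexpression sample was below every not transduced sample at both probes. The knockdown difference exceeded the overexpression difference at both: the log2 difference of these differences was -1.74 (SE 0.20, limma adjusted p = 6.66e-05) and -1.45 (SE 0.17, limma adjusted p = 7.89e-05). Without normalization between arrays these did not pass (-1.30, limma adjusted p = 0.053, and -0.97, limma adjusted p = 0.0887). In that setting the median of all probes for this difference of differences was 0.49, against -0.02 in the main fit.

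The distal probe shifted less than the coding probe in knockdown against nontargeting, by 0.32 on the log2 scale, and in the same samples this gave an exact two-sided permutation p of 0.0286, the smallest that 4 against 4 samples can give. After adjustment over 42 such probe pairs and comparisons that p was 0.109. The permutations here and below took samples as independent, although each array held 2 samples of a group.

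Ntf3, the ligand of TrkC, was 1.47-fold higher in knockdown than in nontargeting cultures. Its values were 9.65, 9.65, 9.29 and 9.46 in knockdown and 9.10, 9.24, 8.80 and 8.67 in nontargeting. They were 9.30, 9.25, 9.13 and 9.20 in not transduced and 9.48, 9.59, 9.13 and 9.11 in overexpression samples. The lowest knockdown sample was just above the highest nontargeting sample, and the other groups overlapped both. The log2 difference of knockdown from nontargeting was 0.56 (SE 0.16, n = 4 and 4, limma adjusted p = 0.0195). Overexpression differed from nontargeting by 0.38 (SE 0.16, limma adjusted p = 0.102), and that difference passed when the replicate number replaced the dye as a block (limma adjusted p = 0.0235). No neighbouring groups in the order of Ntf3 levels, nontargeting, not transduced, overexpression and knockdown, differed past the threshold. When only the knockdown and nontargeting samples were fitted, the limma adjusted p was 0.0616.

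Ntf4, the other ligand of TrkB, was well above background in 1 of 16 samples, a knockdown sample, and was not tested. Its values ran from 6.67 to 7.18 over all samples. The groups overlapped, except that the lowest knockdown sample (6.9869) stood barely above the highest overexpression sample (6.9864).

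Ntrk2 was read by 3 probes, and those of the truncated and the full-length form rose in knockdown against nontargeting, while the extracellular probe did not pass. The variant 2 probe, for truncated TrkB, which is made mainly by astrocytes, was 2.17-fold higher in knockdown than in nontargeting cultures. It read 12.37, 12.21, 12.40 and 12.49 in knockdown and 11.38, 11.40, 11.35 and 10.89 in nontargeting samples. It read 13.41, 13.14, 13.12 and 12.09 in not transduced and 13.19, 13.28, 13.11 and 13.53 in overexpression samples. The nontargeting samples were the lowest of all, and replicate 4 of the not transduced group was the only one of its group below the knockdown range. The log2 differences were 1.11 for knockdown from nontargeting (SE 0.32, limma adjusted p = 0.0216), -1.68 for nontargeting from not transduced (SE 0.32, limma adjusted p = 0.00172) and 2.02 for overexpression from nontargeting (SE 0.32, limma adjusted p = 0.000441). The first of these did not pass without the knockdown array of replicates 1 and 2 (1.19, limma adjusted p = 0.0817) or of replicates 3 and 4 (1.04, limma adjusted p = 0.123), or without the nontargeting array of replicates 3 and 4 (0.98, limma adjusted p = 0.0783).

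For truncated TrkB the order of the group means was nontargeting, knockdown, not transduced and overexpression, and of the neighbours in that order the first pair passed. Knockdown differed from not transduced by -0.57 (SE 0.32, limma adjusted p = 0.292), but by -0.83 (limma adjusted p = 0.0288) without replicate 4 of the not transduced group. Knockdown differed from overexpression by -0.91 (SE 0.32, limma adjusted p = 0.0844), but by -1.05 (limma adjusted p = 0.0499) without replicate 3 of the overexpression group. Overexpression differed from not transduced by 0.34 (95% interval -0.34 to 1.02, limma adjusted p = 1.00).

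Astrocyte markers did not all follow this probe. The summed intensity of 8 astrocyte markers was 42100 to 55940 in nontargeting, 67210 to 81010 in knockdown, 57390 to 98650 in not transduced and 81640 to 105500 in overexpression samples. The lowest not transduced sum was that of replicate 4, which was also lowest at the truncated TrkB probe. The sum leaned on the glutamate transporter gene Slc1a3, which made up 40.3% to 69.8% of it. Without Slc1a3, a sum added after the data were seen, the 7 others gave 22240 to 30920 in nontargeting, 22850 to 28650 in knockdown, 17330 to 39530 in not transduced and 34240 to 49210 in overexpression samples, so that nontargeting and knockdown overlapped. In knockdown against nontargeting 3 of the 8 markers rose, such as Slc1a3 (1.14, SE 0.20, limma adjusted p = 0.00083), and Gfap, an astrocyte filament gene, fell (-1.57, SE 0.49, limma adjusted p = 0.0319), where 21.5% of all genes changed. In nontargeting against not transduced 3 of the 8 fell (Slc1a3, S100b and Fgfr3) and 0 rose, against 22.6% of all genes in either direction. The differences of Gfap, Aldh1l1, Slc1a2 and Gja1 there were 0.59, 0.37, 0.30 and 0.28, with limma adjusted p of 0.104 to 0.429. Aqp4, the remaining marker, was lower there but did not pass, and the median log2 difference over the 8 markers was -0.18. The part of astrocyte RNA in the truncated TrkB result was not tested.

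The variant 1 probe, for full-length TrkB with its kinase, was 1.60-fold higher in knockdown than in nontargeting cultures. It read 14.44, 14.43, 14.49 and 14.56 in knockdown, 13.96, 13.89, 13.53 and 13.82 in nontargeting, 14.54, 14.29, 14.48 and 14.58 in not transduced and 14.40, 14.41, 14.37 and 14.21 in overexpression samples. All nontargeting samples lay below all others. The not transduced samples overlapped both remaining groups, and the lowest knockdown sample lay just above the highest overexpression sample. The log2 differences were 0.68 for knockdown from nontargeting (SE 0.14, limma adjusted p = 0.00323), -0.67 for nontargeting from not transduced (SE 0.14, limma adjusted p = 0.00359) and 0.55 for overexpression from nontargeting (SE 0.14, limma adjusted p = 0.0123). The last was 0.18 (limma adjusted p = 0.585) with the deposited series matrix, and it did not pass with processed signals (0.45, limma adjusted p = 0.0669) or without normalization between arrays (0.67, limma adjusted p = 0.101). The second was -0.49 (limma adjusted p = 0.114) with the series matrix. The knockdown difference exceeded the same-slide overexpression difference of -0.12 by 0.80 (SE 0.20, limma adjusted p = 0.0199), which did not pass in 7 of 39 alternative settings (0.68 to 1.11 over all of them).

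The extracellular probe of Ntrk2 had log2 values of 10.56 to 10.76 in nontargeting, 10.85 to 10.93 in knockdown, 10.80 to 11.29 in overexpression and 10.48 to 11.33 in not transduced samples. Replicate 3 of the knockdown group was left out at this probe as an outlier spot, so the knockdown mean rests on 3 samples. Knockdown differed from nontargeting by 0.22 (95% interval -0.31 to 0.74, limma adjusted p = 0.594), and none of the 6 comparisons passed at this probe. That interval includes the log2 difference of the full-length probe, 0.68, but not that of the truncated probe, 1.11. The truncated probe's own 95% interval, 0.43 to 1.80, overlapped it. In the same samples the truncated probe rose by 0.89 more than the extracellular probe in knockdown against nontargeting (exact permutation p = 0.0286, adjusted p over 42 tests = 0.109).

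**Figure D2:**
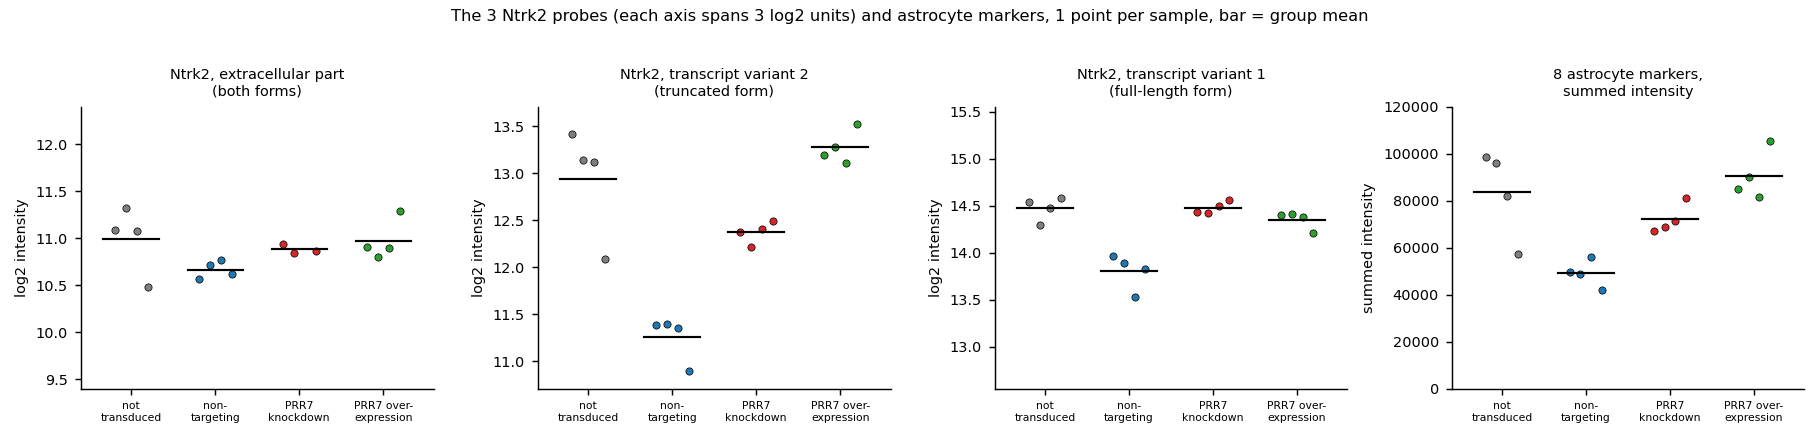
Log2 intensity of the 3 Ntrk2 probes (each axis spans 3 log2 units) and the summed intensity of 8 astrocyte markers; each point is a sample and each bar a group mean. At the truncated form the nontargeting samples are lowest (10.89 to 11.40) and the overexpression samples highest on average (13.28), and the astrocyte marker sums, which include Slc1a3, are lowest in the nontargeting group as well.

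Ntrk3, which encodes TrkC, was 1.56-fold higher in knockdown than in nontargeting cultures. It read 13.61, 13.43, 13.41 and 13.70 in knockdown and 13.01, 13.14, 12.50 and 12.93 in nontargeting samples. It read 13.04, 13.32, 13.53 and 13.67 in not transduced and 13.55, 13.56, 13.59 and 13.39 in overexpression samples. The knockdown and overexpression samples all lay above the nontargeting samples, which overlapped the not transduced group. The log2 difference of knockdown from nontargeting was 0.64 (SE 0.19, n = 4 and 4, limma adjusted p = 0.0264), and that of overexpression from nontargeting was 0.63 (SE 0.19, limma adjusted p = 0.029). The first did not pass when only these groups were fitted (limma adjusted p = 0.0654). The second did not pass without replicate 1 (0.60, limma adjusted p = 0.0549) or replicate 3 (0.55, limma adjusted p = 0.0551) of the overexpression group, and was 0.30 (limma adjusted p = 0.352) with the series matrix. They did not pass in 6 and 10 of 28 alternative settings. Nontargeting differed from not transduced by -0.50 (SE 0.19, limma adjusted p = 0.0773). Neighbouring groups in the order nontargeting, not transduced, overexpression and knockdown did not differ past the threshold.

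Ngfr, which encodes p75, was the only receptor gene with its highest mean in the nontargeting group. Its log2 values were 8.32 to 8.64 in nontargeting, 8.08 to 8.31 in knockdown, 7.97 to 8.13 in not transduced and 7.66 to 8.13 in overexpression samples. All nontargeting samples lay above all not transduced and all overexpression samples, and the highest knockdown sample nearly reached the lowest nontargeting sample. Overexpression differed from nontargeting by -0.55 (SE 0.13, limma adjusted p = 0.00701), a 1.47-fold lower level. That difference was -0.18 (limma adjusted p = 0.648) without normalization between arrays and -0.32 (limma adjusted p = 0.27) with flagged spots kept. The median of all probes in the former setting was 0.365, against -0.03 in the main fit. With flagged spots counted, signal minus background at this probe was 3972 in replicate 1 of the overexpression group. It was 266.9, 85.55 and 171.6 in replicates 2, 3 and 4 of that group. Nontargeting differed from not transduced by 0.41 (SE 0.13, limma adjusted p = 0.0353). The latter did not pass in 14 of 28 alternative settings. It was 0.18 (limma adjusted p = 0.775) without normalization between arrays, and it did not pass with flagged spots kept (limma adjusted p = 0.154), with the series matrix (0.57, limma adjusted p = 0.104), without replicate 2, 3 or 4 of the not transduced group (limma adjusted p of 0.068, 0.0618 and 0.0602) or without replicate 2 of the nontargeting group (0.37, limma adjusted p = 0.0703). Knockdown differed from nontargeting by -0.25 (95% interval -0.52 to 0.03, limma adjusted p = 0.211), and without normalization between arrays by 0.39 (limma adjusted p = 0.227). Without that normalization the median of all probes was 0.64 in knockdown against nontargeting and -0.22 in nontargeting against not transduced. Schwann cells are a source of p75 outside neurons, and of their markers Erbb3 and Cdh19 were above background in 0 samples.

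Sort1, which encodes sortilin, was read by 3 probes, and in the fit over all 16 samples only the one furthest downstream passed. That probe, A_44_P822283, was 1.53-fold higher in knockdown than in nontargeting and 1.95-fold lower in nontargeting than in not transduced cultures. It read 11.32, 11.19, 11.93 and 11.83 in knockdown, 11.01, 11.05, 10.99 and 10.75 in nontargeting, 11.96, 11.58, 12.05 and 12.07 in not transduced and 11.81, 11.59, 11.62 and 11.51 in overexpression samples. All nontargeting samples were below all others, and the knockdown samples of replicates 1 and 2, which shared an array, were closest to them. The log2 differences were 0.62 for knockdown from nontargeting (SE 0.17, limma adjusted p = 0.0196), -0.96 for nontargeting from not transduced (SE 0.17, limma adjusted p = 0.00116) and 0.68 for overexpression from nontargeting (SE 0.17, limma adjusted p = 0.0113). Without the array of knockdown replicates 3 and 4 the first was 0.31 (limma adjusted p = 0.301). The first and the last did not pass in 4 of 28 alternative settings each.

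The Sort1 probes upstream, A_43_P10888 and A_44_P445572, had log2 differences of 0.51 (SE 0.19, limma adjusted p = 0.0691) and 0.43 (SE 0.18, limma adjusted p = 0.106) in knockdown against nontargeting. Both differences had the direction of the distal probe. Each of these probes passed in 5 of 27 alternative settings, such as the series matrix (1.13, limma adjusted p = 0.00461, and 0.75, limma adjusted p = 0.0269). When only the knockdown and nontargeting samples were fitted, A_44_P445572 passed (limma adjusted p = 0.0369) and the distal probe did not (limma adjusted p = 0.059). A_43_P10888 also passed without replicate 3 of the nontargeting group (0.59, limma adjusted p = 0.0358). The value of that replicate, 8.80, stood within the knockdown range, while replicates 1 and 2 read 7.91 and 8.09. In nontargeting against not transduced the 3 Sort1 probes differed in size, by -0.37 (limma adjusted p = 0.183), -0.02 (limma adjusted p = 0.956) and -0.96 in order along the transcript. The distal probe fell by 0.95 more than A_44_P445572, which lies 3172 bases upstream in transcript and genome alike (exact permutation p = 0.0286, adjusted p over 42 tests = 0.109).

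For the distal Sort1 probe the knockdown difference exceeded the same-slide overexpression difference of -0.28 by 0.90 (SE 0.25, limma adjusted p = 0.0312). In this test of the difference between the same-slide comparisons 4 of the 11 member probes passed, where 9.62% of all probes did (5.39% higher and 4.22% lower, with the higher share of calls at 56.1%, and at 96.7% and 90.2% without normalization between arrays and with the series matrix): both Bdnf probes, both lower, and full-length TrkB and this Sort1 probe, both higher. The Sort1 difference did not pass without replicate 4 of the not transduced group (0.84, limma adjusted p = 0.0517), replicate 4 of the nontargeting group (0.87, limma adjusted p = 0.056), replicate 3 of the knockdown group (0.87, limma adjusted p = 0.051) or replicate 3 of the overexpression group (0.88, limma adjusted p = 0.0502).

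**Figure D3:**
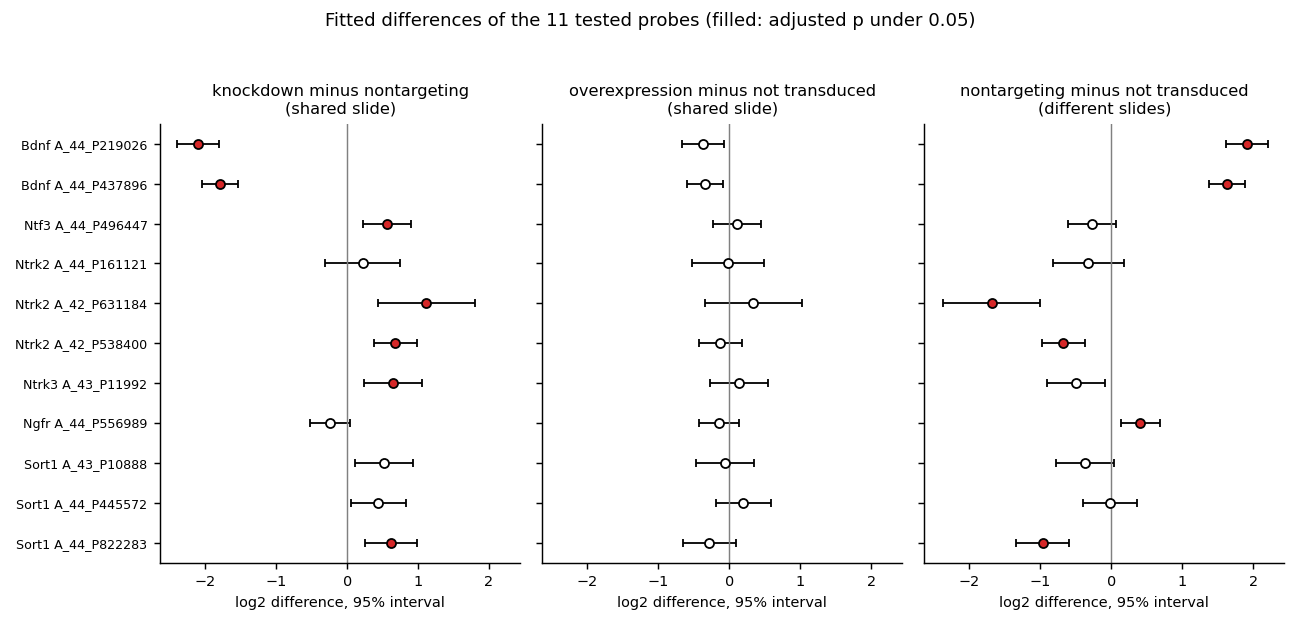
Fitted log2 differences with 95% intervals (horizontal axis) of the 11 tested probes in 3 comparisons; filled points have an adjusted p under 0.05. Knockdown minus nontargeting runs from -2.11 at Bdnf to 1.11 at truncated TrkB, whereas overexpression minus not transduced lies between -0.37 and 0.34 with no filled point.

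Genes whose levels ran most like each member were listed by Pearson r over the samples among 10369 named genes with a value in every sample. All samples share the 4 groups, so r largely follows the group means. For the coding Bdnf probe they were Klf14 (0.99), Csrnp1 (0.99), Ch25h (0.98), Slc40a1 (0.98) and Nup62cl (0.98). The distal probe gave Csrnp1, Klf14, Slc40a1 and Nup62cl again, and Rgs2 (0.98). Csrnp1, a transcription factor gene, had a mean of 10.72 in nontargeting and 8.72 to 9.04 in the other groups. Slc40a1 and Nup62cl had means of 8.05 and 8.11 in nontargeting. Their means in the other groups, 7.06 to 7.27 and 6.89 to 7.01, were near the values of the dim Ntf4 probe (6.67 to 7.18). Truncated TrkB ran with B2m (0.98), Sdc4 (0.97) and Pea15 (0.96), and full-length TrkB with Igbp1b (0.97), Gng3 (0.97) and Lrrc8b (0.96). The extracellular Ntrk2 probe, over 15 samples, ran with Rftn2 (0.93), Mfrp (0.92) and Plat (0.91), which encodes the protease that activates plasminogen. Ntf3 ran with Dnase1l1 (0.90), Micall2 (0.90) and Tlr3 (0.88), Ntrk3 with Tmem200a (0.93), Ppp2cb (0.92) and Fabp5 (0.92), and Ngfr with P2rx2 (0.94), Mon1a (0.92) and Wrap53 (0.92). The Sort1 probes ran with Kif23 (0.94), Hemk1 (0.93) and Zfp511 (0.92), with Col4a5 (0.90), Pcbp4 (0.90) and Nkap (0.87), and, for the distal one, with Foxm1 (0.95), Asb2 (0.93) and Kcnj6 (0.93).

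Genes of the pathway were compared between knockdown and nontargeting by list. Of 19 tested transcripts that BDNF is known to induce, 3 rose and 8 fell, with a median log2 difference of -0.48. Over all 22964 genes, each by its brightest probe, 21.5% changed and the median was -0.02. Fos, a subunit of the AP-1 transcription factor, fell by 3.53 (SE 0.30, limma adjusted p = 1.21e-06) and Nr4a1, an orphan nuclear receptor gene, fell by 2.53 (SE 0.23, limma adjusted p = 2.9e-06). Junb, another AP-1 subunit, fell by 2.33 (SE 0.14, limma adjusted p = 6.44e-08), and Rgs2, a regulator of G protein signalling, fell by 1.80 (SE 0.15, limma adjusted p = 1.21e-06). Their means in nontargeting, 12.56, 13.68, 11.08 and 13.61, stood above those of the other 3 groups, as for Bdnf. Those that rose were Homer1, Egr1 and Npy. The brightest probe of Homer1, a synaptic scaffold gene, rose by 1.77 (limma adjusted p = 0.00121), whereas its other tested probe fell by 1.58 (limma adjusted p = 0.000272). In nontargeting against not transduced 10 of the 19 rose and 4 fell, where 11.6% of all genes rose and 11% fell. In overexpression against not transduced 0 of 19 passed in limma, against 0.00435% of all genes, with 6 at an unadjusted p under 0.05. Of all 22964 genes, 902 had an unadjusted p under 0.05 there.

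Of 23 tested factors that act on the Bdnf gene, 2 rose (8.7%) and 6 fell (26.1%) in knockdown against nontargeting. Of all genes 10.5% rose and 11% fell there. Npas4, an activity-induced transcription factor that binds Bdnf promoters, was well above background in all 4 nontargeting samples and in 0 samples of the other groups. The filter on dim probes required 4 such samples, so this probe was tested only through the group in which it was high. Its direction was thereby favoured in advance, and its p value and its place among the 6 that fell are no separate support. It was at least 1.8-fold lower in knockdown (limma adjusted p = 3.57e-05), a bound against the higher of its own signal and the lowest signal among probes well above background, with measured means of 7.70 in nontargeting and 6.85 in knockdown. Rcor1, a corepressor that works with REST, fell by 0.98 (SE 0.17, limma adjusted p = 0.00061) at its brightest probe and by 0.87 at its other probe. Nfatc4, a calcium-dependent factor, fell by 0.52 (SE 0.11, limma adjusted p = 0.00312). Srf rose by 0.87 (SE 0.14, limma adjusted p = 0.000817) at its brightest probe, and its other probe differed by 0.05 (limma adjusted p = 0.855). In nontargeting against not transduced 5 of the 23 rose (21.7%) and 3 fell (13%), where 11.6% of all genes rose and 11% fell.

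Of 17 tested sortilin relatives and enzymes of precursor processing and secretion, 4 rose (23.5%) and 6 fell (35.3%) in knockdown against nontargeting. The shares over all genes were 10.5% and 11%. Hap1, which binds the Bdnf precursor and sortilin in transport, fell by 1.32 (SE 0.17, limma adjusted p = 4.95e-05), and Pcsk5, a protease of the furin family, fell by 1.00 (SE 0.14, limma adjusted p = 0.00013). Sorcs1, a relative of sortilin, rose by 0.90 (SE 0.15, limma adjusted p = 0.000463), and Pcsk2, a protease of dense-core vesicles, rose by 1.06 (SE 0.18, limma adjusted p = 0.000716). Other probes of Sorcs1 and Pcsk2 differed by 0.30 (limma adjusted p = 0.0639) and 0.43 (limma adjusted p = 0.0869).

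Of 20 partners of p75, 3 rose and 3 fell (15% each) in knockdown against nontargeting, near the shares over all genes (10.5% and 11%). Lingo1, a coreceptor of p75 in myelin signalling, rose by 1.40 (SE 0.17, limma adjusted p = 3.52e-05), and Arhgdia, which encodes a GDP dissociation inhibitor that binds p75, rose by 1.32 (SE 0.14, limma adjusted p = 8.69e-06) and, at its other probe, by 0.67. Rac1, a small GTPase, rose by 1.14 (SE 0.11, limma adjusted p = 4.91e-06), while its other probe differed by 0.12 (limma adjusted p = 0.584). Psen2, a subunit of the protease complex that cuts p75 in the membrane, fell by 0.70 (SE 0.12, limma adjusted p = 0.000514). Of 43 adaptors and effectors of Trk receptors, 3 rose and 3 fell (6.98% each), and the other 37 did not pass. These shares were below those over all genes (10.5% and 11%). Shc3, a Trk adaptor of neurons, rose by 0.66 (SE 0.13, limma adjusted p = 0.00206), and Pdpk1, a kinase upstream of Akt, fell by 0.63 (SE 0.14, limma adjusted p = 0.00535). Sos1, an exchange factor of Ras, rose by 1.17 (SE 0.26, limma adjusted p = 0.00523), and its other probe differed by 0.27 (limma adjusted p = 0.132). In overexpression against not transduced 0 of the 103 tested genes of these 4 lists passed in limma, against 0.00435% of all genes. An unadjusted p under 0.05 was found for 3 of the 103 and for 902 of all 22964 genes.

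**Figure D4:**
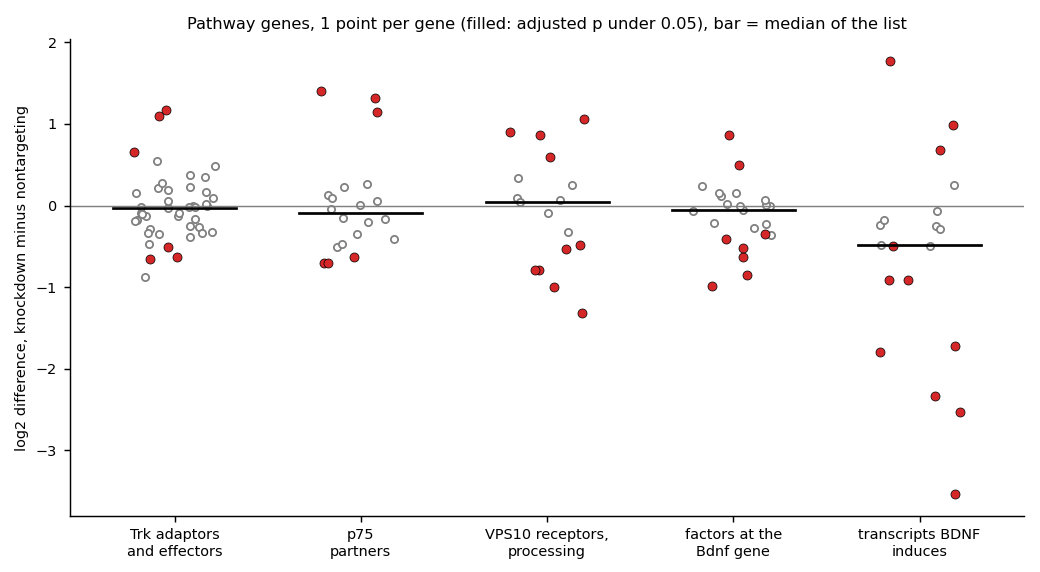
Log2 difference of knockdown minus nontargeting (vertical axis) for the tested genes of 5 lists, 1 point per gene at its brightest probe; filled points have an adjusted p under 0.05 and bars are list medians. Transcripts that BDNF induces spread from -3.53 (Fos) to 1.77 (Homer1), while most Trk adaptors and effectors lie near 0.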

How the data were processed

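Total RNA of 16 cultures was read on 8 arrays of 1 Agilent rat design (014879) in 2 dyes, replicates 1 and 3 in Cy3 and replicates 2 and 4 in Cy5. The deposited scanner files hold intensity values, spot means and local background medians without normalization, per the file headers, from Agilent Feature Extraction 10.7.3.1 (also named in the submitters' processing notes). Their processed intensity was background-subtracted, detrended and dye-normalized within the array, per the file headers. The deposited series matrix holds log2 values that matched log2 of median signal minus median background, centred per column (slope and r 1, column medians 0). A description field of the labels named adult tissue, went against the culture protocol and was not used. With arrays, the number of samples limits the precision.

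In limma 3.58.1 (R 4.3.3, statmod 1.5.0 and data.table, version 1.17.8), normexp with an offset of 50 corrected the background. Loess within arrays, in which control spots had weight 0, balanced the dyes, and Aquantile aligned the arrays. Flagged outlier spots were set missing in their dye and spots of a probe were averaged. Probes were kept if well above background in at least 4 samples, with at least 12 values and 2 per group. Single-channel log2 values were fitted on group and dye, with a random block for the array (within-array correlation 0.562, 11 residual and 4.05 prior degrees of freedom), and p values are two-sided. Differences between probes of a gene were tested by exact permutation over samples, without regard to the array that samples shared. Fits were tested on simulated data. Plots used Python 3.11.15 with matplotlib 3.10.9 and numpy 2.4.6.

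Of 41012 probes 17512 were named through RefSeq accessions and 3095 through symbols of a reference table, and others kept the array's name. The members and the gene lists were chosen with earlier results of these data known. All member probes were named, with up to 4 genes of each pathway list past the threshold in knockdown against nontargeting by smallest p, and the 3 (Bdnf: 5) genes likest each probe. Some genes that this rule or the lists hold are not reported here. The members of lists called in words only (Homer1, Egr1, Npy), and the marker genes were named after their values were seen. The alternatives covered background, normalization, filters, blocks, and samples or arrays left out.

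Pairing by replicate number was checked. After group means were removed, same-numbered knockdown and nontargeting samples correlated over probes at 0.137, 0.156, 0.264 and 0.201. Those samples also share a dye, and with the dye removed the values were 0.146, 0.0804, 0.152 and 0.0705. For overexpression and not transduced they were 0.256, 0.123, 0.209 and -0.192 before the dye was removed.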

Additional observations from a re-analysis of the deposited data

Results flagged for a closer look

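At the truncated TrkB probe (Ntrk2 A_42_P631184), replicate 4 of the nontargeting group lay apart from the others of its group, at 10.89 against 11.35 to 11.40. It was 1 such sample in 47 groups of 4 values checked, where chance gives about 1 in 20 (5%).

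Knockdown minus nontargeting differed from overexpression minus not transduced, by a test of that difference in limma, at 4 probes. The log2 difference was -1.74 at the coding probe of Bdnf (A_44_P219026) and -1.45 at its distal probe (A_44_P437896), and all 4 knockdown samples were below all 4 nontargeting samples at both. It was 0.80 at full-length TrkB (Ntrk2 A_42_P538400) and 0.90 at the distal Sort1 probe (A_44_P822283). These differences set comparisons of different slides against each other.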

How the results depend on the processing

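Over 40 alternative settings, no member probe that passed in any of the 7 contrasts changed direction. Both Bdnf probes passed in every setting run in knockdown against nontargeting (-2.26 to -1.69 and -2.07 to -1.28), as did full-length TrkB (0.55 to 0.82). Fits on the compared groups alone lost the distal Sort1 probe (0.62, limma adjusted p = 0.059), Ntrk3 and Ntf3 there. They gained the Sort1 probe A_44_P445572 (0.43, limma adjusted p = 0.0369). Leaving out an array leaves that group with 2 samples. The median of all probes in knockdown against nontargeting moved from -0.02 to 0.64 without between-array normalization and to 0.17 with the series matrix. What caused each change was not tested. Dim probes such as that of Ntf4 give no usable level here.

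In knockdown against nontargeting the count of all probes was 11924 without between-array normalization, 9791 with samples taken as independent, and 3339 and 3574 without the knockdown array of replicates 1 and 2 or 3 and 4. Its member count was 4 with each array as 1 value and without the knockdown array of either pair or the nontargeting array of replicates 3 and 4. In overexpression against not transduced the count of all probes was 2 with plain background subtraction and with processed signals, 3 with the series matrix, 30 with independent samples, 0 without between-array normalization, with each array as 1 value and with the compared groups alone, 45 without either overexpression array, and 7 and 34 without the not transduced array of replicates 1 and 2 or 3 and 4.

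In nontargeting against not transduced the count of all probes was 2716 without between-array normalization, 10800 with independent samples and 3783 with the compared groups alone. In overexpression against nontargeting it was 2551, 10782 and, without the overexpression array of replicates 1 and 2 or 3 and 4, 3528 and 3633, and 4 member probes passed without between-array normalization, with the series matrix and without the first of these arrays. In knockdown against not transduced it was 7108 with independent samples, 1217 with each array as 1 value, and 1190 and 1316 without either knockdown array. There 1 member probe passed with independent samples, without knockdown replicates 3 and 4 and without either not transduced array.

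In knockdown against overexpression the count of all probes was 195 without between-array normalization, 6395 with the series matrix, 7340 with independent samples, 1230 with each array as 1 value, 4956 with the compared groups alone, 1214 and 1367 without either knockdown array and 1211 and 1345 without either overexpression array. There 1 member probe passed with the series matrix and with the compared groups alone, and 2 with independent samples. For the difference of the same-slide comparisons, main counts were 2625 probes and 4 member probes. All probes numbered 1032 without between-array normalization, 6173 with independent samples, 1138 with each array as 1 value, and 1644, 4066 and 1702 without replicates 1 and 2 of knockdown, nontargeting and overexpression. Member probes numbered 1 without between-array normalization, 7 with the series matrix, and 2 with each array as 1 value and without replicates 1 and 2 of overexpression or 3 and 4 of knockdown, overexpression or not transduced.

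Leaving out 1 replicate gave 7 to 8 member probes and 4977 to 5897 of all probes in knockdown against nontargeting, 0 and 0 to 2 in overexpression against not transduced, 5 to 6 and 4965 to 6407 in nontargeting against not transduced, and 0 to 1 and 1966 to 3017 in knockdown against not transduced. It gave 6 to 7 and 5082 to 6548 in overexpression against nontargeting, 0 to 1 and 2176 to 2770 in knockdown against overexpression, and 3 to 4 and 2163 to 2899 for the difference. With the replicate block in place of the dye, 7 member probes and 6705 of all probes passed in knockdown against nontargeting, and Ntf3 was added in overexpression against nontargeting (8 member probes). No other call of a member changed.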

Other observations

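In all 4 groups, both samples of the array of replicates 1 and 2 read higher than both samples of the array of replicates 3 and 4 at the probes of Ntf3 and Ngfr. At Ngfr the pairs read 8.31 and 8.31 against 8.11 and 8.08 in knockdown, and 8.47 and 8.64 against 8.37 and 8.32 in nontargeting. They read 8.13 and 8.04 against 7.97 and 8.01 in not transduced, and 7.91 and 8.13 against 7.66 and 7.87 in overexpression samples.

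Markers of inhibitory interneurons, some of which are known targets of BDNF, were lower in nontargeting than in not transduced cultures: 6 of 8 fell and 0 rose in limma, where 22.6% of all genes changed in either direction. In knockdown against nontargeting 5 of the 8 rose, where 10.5% of all genes rose and 11% fell. Among them was Slc32a1, which encodes the vesicular transporter of GABA (1.10, SE 0.21, limma adjusted p = 0.00155). Calb2, which encodes calretinin, fell (-1.67, SE 0.23, limma adjusted p = 0.000126). The summed intensity of the 8 markers was 42000 to 52570 in not transduced, 20280 to 28940 in nontargeting, 20550 to 25890 in knockdown and 38100 to 49830 in overexpression samples.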
